A study of Mus musculus with 24 samples.

Results

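The 34 genes described here are type I interferon response genes, chosen by their symbols in the deposited table of 55487 genes. RNA-seq was done on mouse LSK cells (Lineage-Sca1+KIT+), a sorted fraction rich in blood stem cells and early progenitors. The tested cells, called ME, came from mice with a Tet-On MLL::ENL transgene, which encodes an inducible leukaemia fusion protein made from parts of Kmt2a (MLL) and Mllt1 (ENL). The fusion was induced in culture, and cells were kept in culture for 48 h. Each of the 6 groups held 4 libraries: ME and control cells of E16 liver, ME and control cells of P14 bone marrow, and ME and control cells of 8wk bone marrow. The strain, what the control cells carried and whether they met the inducer are not given in the sources used here. Nor is it stated whether replicates were separate animals, so p-values measure the spread between these libraries, which may be technical. E16 cells differ from the others in tissue as well as in age, and those cannot be told apart.

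Type I interferons bind a receptor of the chains Ifnar1 and Ifnar2, whose kinases Jak1 and Tyk2 phosphorylate STAT proteins, among them Stat2. Stat2 joins Irf9 in a complex that binds the interferon-stimulated response element (ISRE) in the promoters of target genes. The targets include sensors of foreign RNA and DNA, effectors that block viral growth, and brakes such as Usp18. In blood stem cells, interferon is known to drive quiescent cells into division, and Sca1 (Ly6a), one of the proteins used to sort LSK cells, is itself induced by it.

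The ISRE core was searched in promoter windows of 300 bases, from 250 before to 50 after each gene start (RefSeq, GRCm38.p6), as GAAANNGAAA or TTTCNNTTTC, which are the same core on the 2 strands and may overlap one another. A window was given for 24 of the 34 genes. Of these 24, 13 held the core (54.2%), against 1079 of all 27025 genes with a window (3.99%). The sequences below show the core in 9 members on which the results turn or, for Eif2ak2, that was called in no ME comparison. They are read along the strand of the gene, with the blocks of the core in capitals.
Isg15, chr4:156200871-156200900, minus strand: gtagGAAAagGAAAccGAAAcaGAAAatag
Ifit1 far site, chr19:34640780-34640799, plus strand: ttcagTTTCacTTTCcagtc
Ifit1 near site, chr19:34640799-34640818, plus strand: ctcagTTTCagTTTCtcact
Ifit3 far site, chr19:34583368-34583387, plus strand: gtaagTTTCacTTTCctctt
Ifit3b far site, chr19:34607764-34607783, plus strand: gtaagTTTCacTTTCctctt
Rsad2, chr12:26456558-26456577, minus strand: ccaacTTTCatTTTCagaaa
Oas3, chr5:120777720-120777739, minus strand: gaggaGAAAacGAAAgtgaa
Stat2, chr10:128270271-128270290, plus strand: cctggTTTCagTTTCctttc
Bst2, chr8:71537582-71537607, minus strand: tccagGAAAatGAAActGAAAggctg
Eif2ak2, chr17:78882540-78882559, minus strand: gccggGAAAacGAAAcagaa
Isg15 held 3 overlapping copies, which began 78 bases before its start. The far sites of Ifit3 and Ifit3b have the same letters, and counts of these near-identical neighbours are uncertain, since the treatment of reads that fit both is not stated. The other members with a match were Ddx58, Ifih1, Oas1a and Trim30a. Eif2ak2, whose level was called in no ME comparison, held the core as well, while Irf7, Oasl1 and Ifi44 did not hold these letters in their windows. The interferon gamma activated site (TTCNNNGAA, the same on both strands) was in 5 of the 24 windows (20.8%), against 9.55% of all genes. A match is a description of letters and not evidence of binding. Windows were not given for Dhx58, Zbp1, Usp18, Oas2, Mx1, Mx2, Parp14, Ifi27, Ifi27l2a and Rtp4.

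**Figure D1:**
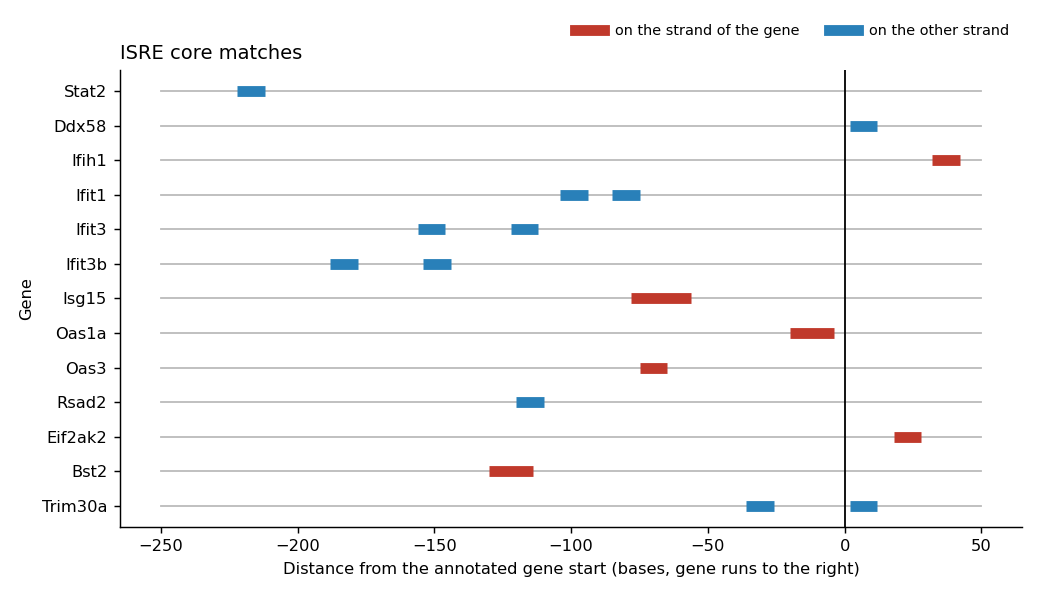
Positions of the ISRE core in the 13 members that held it, in bases from the gene start, for windows from 250 before to 50 after it. Bars are matches (red on the strand of the gene, blue on the other strand, overlapping ones joined), with those of Ddx58, Ifih1 and Eif2ak2 after the start and those of the other genes before it, except that Trim30a has 1 on each side, from different windows.

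Library totals ranged from 33.9 to 69.3 M counts. Levels are given as CPM, the count divided by the library total in M after TMM scaling, and a gene was called at an edgeR adjusted p under 0.05 over all 18931 genes tested. All 34 members passed the filter on low counts. Mllt1, a parent gene of the fusion, lay between 35.7 and 89.3 CPM in ME libraries and between 9.9 and 29.8 CPM in control libraries. All 12 progenitor markers had a count in every group, with summed levels between 2750 and 4270 CPM. Any count in a group sufficed, and all 10 neutrophil markers had one in every group too. This is therefore no test of the LSK label. In E16 control replicate 1 the neutrophil sum, 5980 CPM, was above the progenitor sum of 3090 CPM.

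Libraries of a group were not alike. E16 ME replicate 4 held 7200 CPM summed over the 34 members, against 4400 to 4430 CPM in the other E16 ME libraries, and it was the highest of its group for 28 members. Its summed monocyte and macrophage markers were 132 CPM, against 539 to 648 CPM in the other E16 ME libraries, and its neutrophil markers 44.2 against 865 to 1060 CPM. In 8wk ME replicate 4 these sums were likewise the lowest of the group, at 174 CPM against 873 to 1050 and 40.8 CPM against 912 to 1480. There, however, the members were low, at 1420 CPM against 1910 to 2150, and 24 of 34 had their lowest 8wk ME level in it. In 1 library each, the lowest myeloid markers of the ME group went with its highest member levels at E16 and with its lowest at 8wk. In 8wk control replicate 1 the marker sums were the highest of its group, at 778 and 866 CPM, with members at 844 CPM inside the range of the other controls (811 to 1160). E16 control replicate 1 stood out likewise, at 1290 CPM against 501 to 569 and 5980 CPM against 1120 to 1870. Its members summed to 3880 CPM, against 2760 to 4380 CPM in the other E16 controls. It was kept in the later fit that left out 3 libraries. P14 ME replicate 3 was the highest of its group for 33 of 34 members. Its monocyte and macrophage markers were 79.9 CPM, against 101 to 166 CPM in the others, and its neutrophil markers 5.5 against 4.65 to 12.4 CPM. E16 control replicate 4 was the lowest of its group for 32 members. The part of these markers and libraries in the results was not tested beyond leaving libraries out. In bulk RNA, fewer cells of a type and less RNA per cell cannot be told apart.

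**Figure D2:**
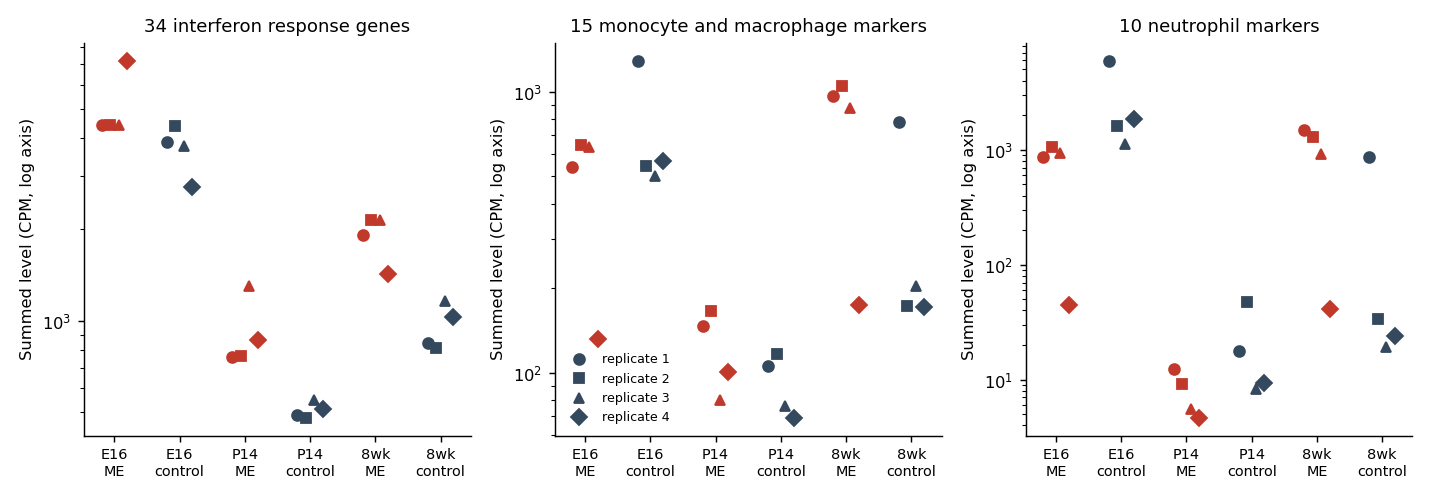
Summed level in CPM (log axis) of the 34 interferon response genes, the 15 monocyte and macrophage markers and the 10 neutrophil markers in each of 24 libraries; ME in red, control in dark blue, one symbol per replicate number. Replicate 4 of E16 ME is the highest library for the members, at 7200 CPM, with markers of 132 and 44.2 CPM.

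Mean levels of most of these genes were far higher at E16 than at the later ages, in ME and in control cells. In control cells 33 of 34 members had the order E16 above 8wk above P14 by group mean, the exception being Stat2 (35.9, 19.0 and 18.6 CPM at E16, P14 and 8wk). In ME cells 33 of 34 had the same order, the exception being Ifi27, whose mean was 160, 111 and 293 CPM at E16, P14 and 8wk. Per kilobase of exon, the highest level among the members in E16 controls was that of Bst2, the membrane tether that holds budding virus on the cell, at 321 CPM per kb. Isg15 and Ifi27, each at 171 CPM per kb, followed. The lowest were Mx2 and Mx1, at 1.2 and 1.42 CPM per kb.

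**Figure D3:**
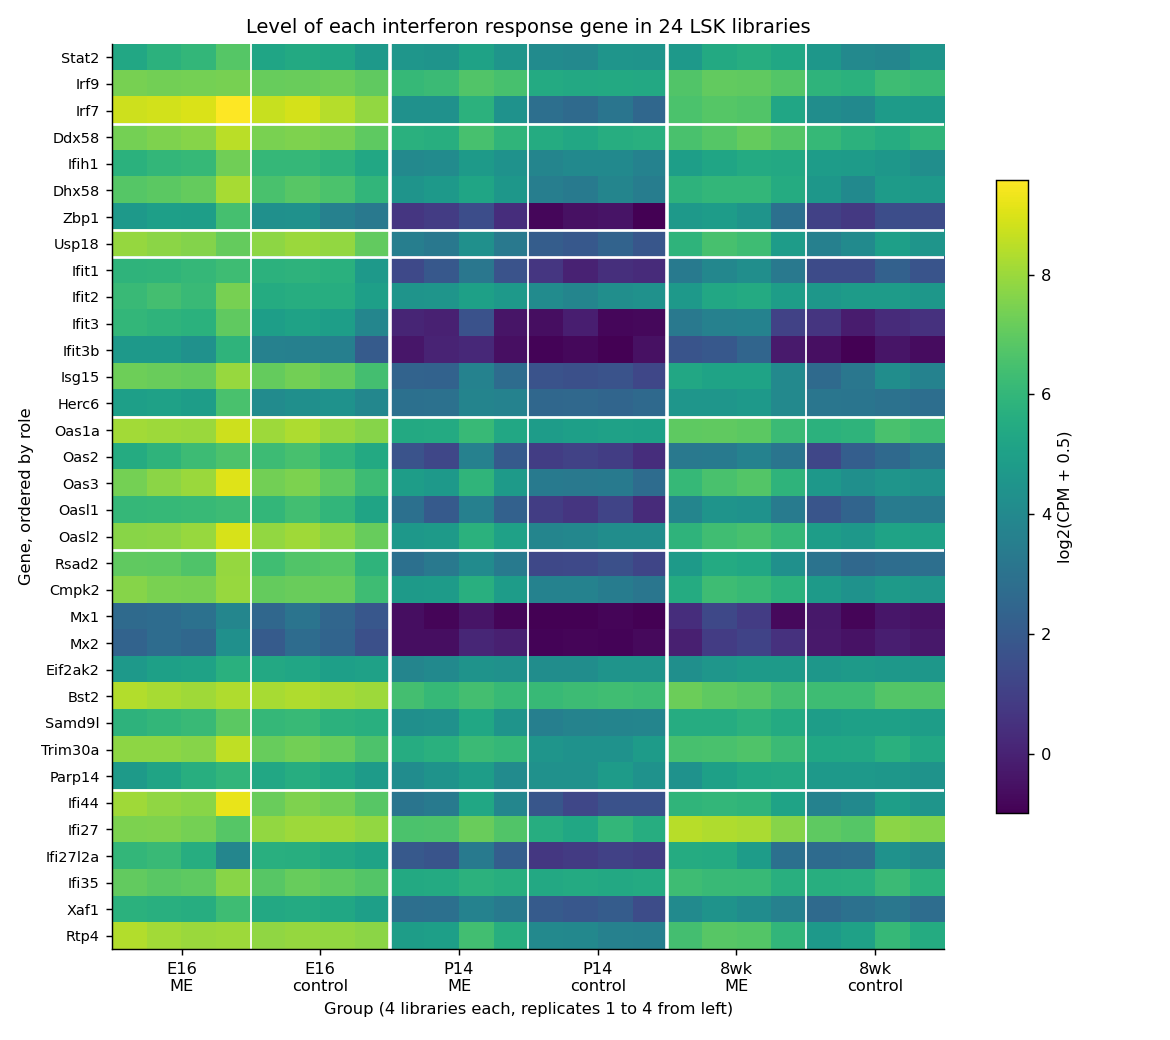
Level of each of the 34 members, as log2(CPM + 0.5), in the 24 libraries, with ME left of control at each age and genes ordered by role from signal factors at the top to less characterised genes at the bottom. The E16 columns are the brightest and the P14 control columns the darkest for most genes.

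At E16, where control levels were already high, fewer members were called than at the later ages. Of 34 members, 9 rose (26.5%) and 1 fell (2.94%), against 13.3% higher and 8.47% lower of all genes tested. At an unadjusted p under 0.05, 16 were higher and 1 lower, with the share of all genes at that cut not counted. Of the 34 log2 fold changes 31 were positive, against 51.5% of all genes. The members' median log2 fold change was 0.51, against 0.02 for all genes. For 12 members all 4 ME libraries lay above all 4 controls (14.5% of all genes did). The members that rose were Stat2, Dhx58, Zbp1, Ifit2, Ifit3b, Herc6, Oas3, Cmpk2 and Trim30a. This count depended on single libraries: without E16 ME replicate 4 only Ifit2, Herc6 and Trim30a were called, without E16 control replicate 4 these and Ifi27, and without E16 control replicate 3, 6 members. Summed monocyte and macrophage markers were 132 to 648 CPM in E16 ME and 501 to 1290 CPM in E16 control, and neutrophil markers 44.2 to 1060 CPM in E16 ME and 1120 to 5980 CPM in E16 control. Megakaryocyte markers moved most: 7 of 10 fell, with sums of 112 to 181 CPM in E16 ME and 367 to 851 CPM in E16 control, which did not overlap. The part of these markers in the members' result was not tested.

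Ifit2, which binds foreign RNA and slows translation, had 70.7, 85, 72.1 and 168 CPM in E16 ME, against 45.4, 47.3, 47.3 and 30.6 CPM in E16 control libraries. The groups did not overlap, and replicate 4 was the extreme library in both. The log2 fold change was 1.21 ± 0.23 (SE, adjusted p = 0.000761). Herc6, the main ligase that attaches Isg15 to proteins in mice, had 31.2, 32.8, 29.1 and 91.8 CPM in ME, against 16.7, 18.6, 20.8 and 14.3 CPM in control. Again all ME libraries lay higher, and the log2 fold change was 1.39 ± 0.29 (adjusted p = 0.00156). Trim30a, a ubiquitin ligase that restrains Toll-like receptor signals in mice, had 219, 222, 201 and 377 CPM in ME, against 140, 159, 139 and 99.3 CPM in control. It changed by 0.92 ± 0.19 log2 (adjusted p = 0.00119), with no overlap.

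Stat2 (chr10:128270559-128292849, plus strand) had 39.9, 55.1, 63.8 and 109 CPM in E16 ME, against 37.1, 42.9, 38 and 25.5 CPM in E16 control libraries. One ME library lay inside the control range, and the change was 0.90 ± 0.26 log2 (adjusted p = 0.0155). Dhx58 (LGP2), a cytosolic RNA sensor, had 111, 119, 137 and 291 CPM in ME, against 91.7, 114, 95.5 and 62.2 CPM in control. The groups touched in 1 library each, and the change was 0.86 ± 0.26 log2 (adjusted p = 0.0215). Oas3, an oligoadenylate synthetase that makes the messenger of RNase L, had 164, 212, 254 and 535 CPM in ME, against 162, 178, 125 and 76.4 CPM in control. It changed by 1.10 ± 0.34 log2 (adjusted p = 0.0241), and ME replicate 1 lay inside the control range.

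The member that fell at E16 was Ifi27 (chr12:103434211-103440239, plus strand), a small membrane protein of uncertain function. It had 178, 183, 166 and 112 CPM in ME, against 233, 264, 273 and 236 CPM in control, with no overlap. Its log2 fold change was -0.65 ± 0.21 (adjusted p = 0.0287). Without ME replicate 4 the value was -0.52, with an adjusted p of 0.11, and without control replicate 2 or 3 the adjusted p was 0.065 or 0.0719. In that library Usp18, Ifi27 and Ifi27l2a were the lowest of the group, while 28 other members were the highest.

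Several central members were not called at E16. Irf9 (chr14:55603571-55610030, plus strand) had 169, 159, 166 and 168 CPM in ME, against 141, 145, 151 and 127 CPM in control. The groups did not overlap, yet the change of 0.23 ± 0.12 log2 did not pass (adjusted p = 0.187). Irf7 (chr7:141262706-141266481, minus strand), the factor that amplifies interferon production, had 441, 465, 511 and 767 CPM in ME, against 415, 472, 337 and 230 CPM in control, with overlap and adjusted p = 0.247. Isg15 (chr4:156199424-156200818, minus strand), the ubiquitin-like modifier, had 151, 142, 134 and 250 CPM in ME, against 136, 161, 136 and 85.3 CPM in control, with overlap and adjusted p = 0.467. Ifit1 (chr19:34640871-34650009, plus strand), a sensor of unmethylated RNA caps, had 59.1, 59.9, 65.1 and 78.7 CPM in ME, against 55.3, 56.6, 52.4 and 25.4 CPM in control. No libraries overlapped, and the adjusted p was 0.373. Usp18 (chr6:121245906-121270917, plus strand), which removes Isg15 from proteins and blocks signalling at Ifnar2, had 240, 216, 196 and 136 CPM in ME, against 219, 255, 234 and 130 CPM in control. Those groups overlapped, and the log2 fold change was -0.09 ± 0.33 (adjusted p = 0.884).

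At P14, where control levels were lowest, ME cells held more RNA of most members. Of 34 members 24 rose and 0 fell by edgeR, against 12.7% higher and 9.35% lower of all genes. At an unadjusted p under 0.05, 28 were higher and 0 lower, with the share of all genes at that cut not counted. DESeq2 called 26 and limma-voom 16, all of them higher. The median log2 fold change was 1.48, against 0.03 for all genes, and for 24 members the ME libraries all lay above the controls (14.1% of all genes). All 5 OAS family members rose, as did 5 of 6 small or less characterised genes, 4 of 6 Ifit and Isg15 genes, 5 of 9 other antiviral effectors, 2 of 3 signal factors and 2 of 4 sensors. Without P14 ME replicate 3, the library with the highest member levels, 19 members were called. Zbp1, Ifit3 and Mx2, which are among the 24, had at most 15, 29 and 6 counts in a P14 control library. B cell markers rose too, in 8 of 10, with summed levels of 38.6 to 350 CPM in ME and 40.4 to 44.2 CPM in control; in ME replicate 3 their sum was 46.8 CPM. Of 15 monocyte and macrophage markers 3 rose and 0 fell. They summed to 79.9 to 166 CPM in ME and 69.2 to 117 CPM in control, where C1qa and C1qb were at 0 counts. Of 8 tested plasmacytoid dendritic cell markers 3 rose and 1 fell, with list sums of 175 to 196 CPM in ME and 160 to 196 CPM in control. The part of these markers in the members' result was not tested. The 10 neutrophil markers summed to 4.65 to 12.4 CPM in ME and 8.21 to 47.0 CPM in control.

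Irf9 had the smallest adjusted p at P14. Its level was 67.8, 74.2, 105 and 90.2 CPM in ME, against 43.3, 41.8, 42 and 41.2 CPM in control, and no libraries overlapped. The log2 fold change was 1.00 ± 0.12 (adjusted p = 6.61e-06). Rsad2 (viperin), which makes a chain-terminating nucleotide, had 6.95, 9.1, 16.7 and 9.56 CPM in ME, against 1.96, 2.05, 2.47 and 1.82 CPM in control. It rose by 2.35 ± 0.31 log2 (adjusted p = 1.87e-05). Cmpk2, the nucleotide kinase encoded beside Rsad2, had 27, 27.4, 51.1 and 28.6 CPM in ME, against 12.4, 12.3, 10.3 and 8.49 CPM in control. It rose by 1.63 ± 0.22 log2 (adjusted p = 2.07e-05).

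Trim30a had 46.1, 51.9, 73.3 and 66.6 CPM in P14 ME, against 22.7, 20.8, 20.5 and 27.9 CPM in P14 control libraries (1.37 ± 0.19 log2, adjusted p = 2.19e-05). Xaf1, a protein linked to cell death, had 6.81, 6.91, 12.3 and 9.6 CPM in ME, against 3.65, 3.19, 3.78 and 2.26 CPM in control (1.47 ± 0.22 log2, adjusted p = 5.78e-05). Rtp4, a receptor chaperone that is also antiviral, had 29.1, 31.1, 82.3 and 49.2 CPM in ME, against 15.4, 14.7, 12.1 and 11.7 CPM in control (1.83 ± 0.29 log2, adjusted p = 0.000138). None of these genes had overlapping groups, and ME replicate 3 was the highest library for each.

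Irf7 had 20.2, 19.9, 56 and 20.3 CPM in P14 ME, against 6.79, 5.82, 8.25 and 5.23 CPM in P14 control libraries. All ME libraries lay higher, with replicate 3 far above the rest (2.16 ± 0.37 log2, adjusted p = 0.000276). Isg15 had 4.61, 4.52, 12.3 and 6.1 CPM in ME, against 2.77, 2.47, 2.74 and 1.87 CPM in control (1.49 ± 0.37 log2, adjusted p = 0.00651). Ifit1 had 2.04, 3.29, 8.66 and 2.74 CPM in ME, against 1.1, 0.523, 0.858 and 0.726 CPM in control (2.40 ± 0.40 log2, adjusted p = 0.000178). Both were separated without overlap, at levels far below those of E16. Usp18 had 10.9, 8.99, 19.2 and 9.17 CPM in ME, against 3.89, 3.25, 4.61 and 3.02 CPM in control (1.71 ± 0.35 log2, adjusted p = 0.00139). Stat2 had 23.4, 21.8, 33.3 and 22.3 CPM in ME, against 16.6, 15.5, 22.2 and 21.8 CPM in control, which overlapped, and was not called (0.41 ± 0.26 log2, adjusted p = 0.285).

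The rise at P14 did not bring members to the E16 level. In 31 of 34 members all P14 ME libraries lay below all E16 control libraries, the others being Stat2, Ifit2 and Parp14; of all genes tested, 19.8% lay below in this way. By group mean, P14 ME cells held a median of 21.9% of the E16 control level over the members, against 7.86% in P14 controls. Irf7 stood at 8.01% of the E16 control mean in P14 ME and at 1.8% in P14 controls.

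**Figure D4:**
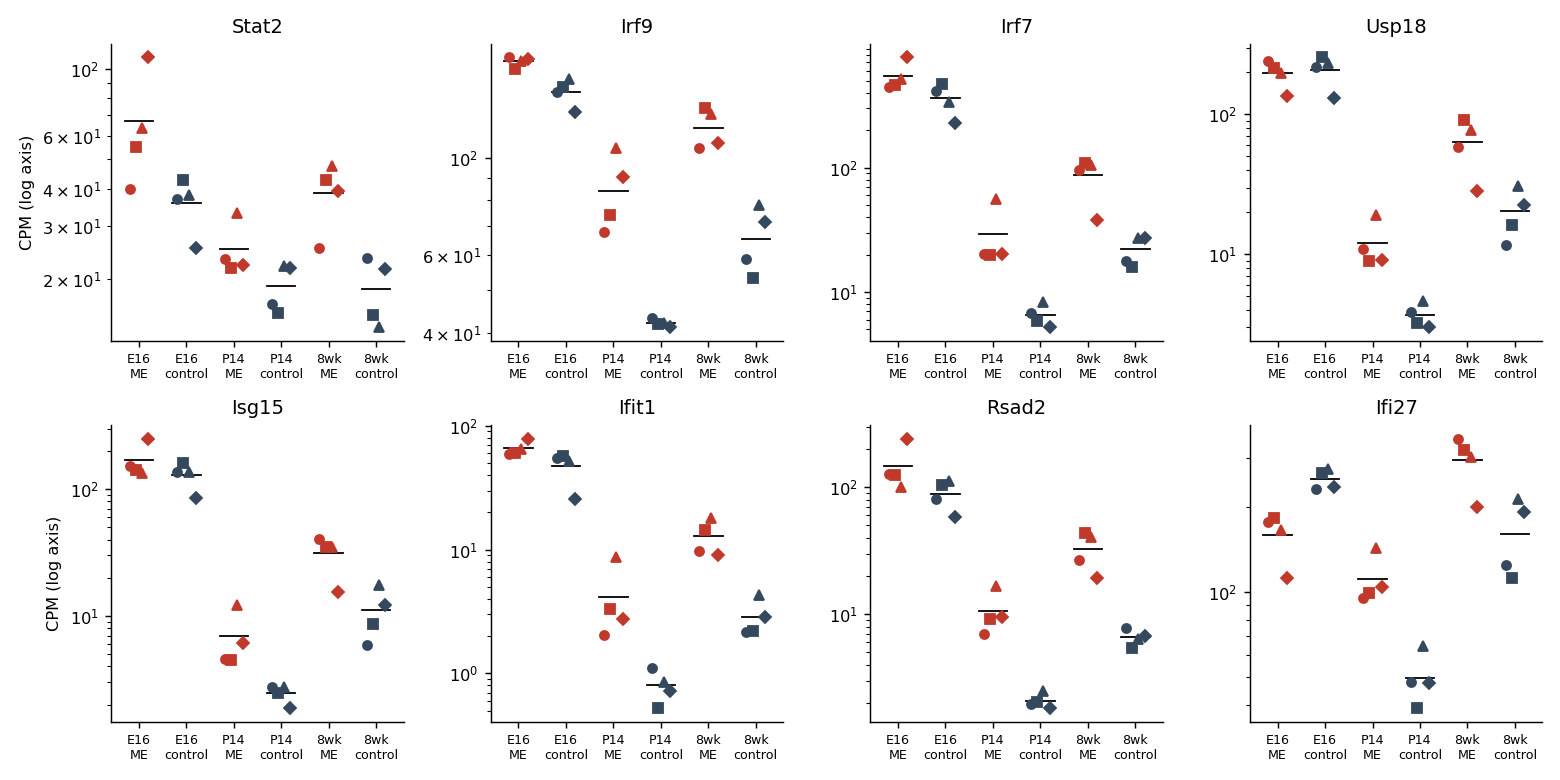
CPM (log axis) of 8 members in each library, ME in red left of control in dark blue at each age, with black bars at the group mean and one symbol per replicate number. Irf7, Isg15, Ifit1 and Rsad2 fall by more than 10-fold between the E16 and P14 control means, while Ifi27 is lower in ME at E16 and higher in ME at P14 and 8wk.

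At 8wk, ME cells again had higher levels of most members. By edgeR 27 of 34 rose and 0 fell, against 14.2% higher and 14.3% lower of all genes. At an unadjusted p under 0.05, 30 were higher and 0 lower, with the share of all genes at that cut not counted. DESeq2 called 29 and limma-voom 24, none lower. The median log2 fold change was 1.28, against -0.02 for all genes. In 21 members all ME libraries lay above all controls (12% of all genes). Of the 24 members that rose at P14, 22 rose at 8wk too, which is 22 of the 27 called at 8wk. The 2 that did not were Oas2 and Ifi27l2a, and the overlap over all genes was not counted. Monocyte and macrophage markers moved the same way, with 9 of 15 higher and summed levels of 174 to 1050 CPM in ME and 172 to 778 CPM in control. Neutrophil markers summed to 40.8 to 1480 CPM in ME and 19.4 to 866 CPM in control. Of 8 tested plasmacytoid dendritic cell markers 2 rose and 0 fell, with list sums of 129 to 157 CPM in ME and 98.3 to 128 CPM in control. Without 3 libraries whose marker sums stood apart (E16 ME replicate 4, 8wk ME replicate 4 and 8wk control replicate 1), 29 members were called at 8wk. That step was chosen after the data were seen, and E16 control replicate 1 was not left out.

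Rsad2 had 26.7, 44, 40.3 and 19.4 CPM in 8wk ME, against 7.78, 5.45, 6.34 and 6.69 CPM in 8wk control libraries. The groups did not overlap, and the change was 2.31 ± 0.31 log2 (adjusted p = 2.03e-05). Irf9 had 105, 130, 126 and 108 CPM in ME, against 58.9, 53.2, 78.1 and 71.4 CPM in control (0.84 ± 0.12 log2, adjusted p = 4.8e-05). Zbp1, a sensor of Z-form nucleic acid that can start necroptosis, had 25.3, 28, 21.8 and 7 CPM in ME, against 1.58, 1.18, 2.36 and 2.25 CPM in control. All its ME libraries lay above the controls, with replicate 4 the lowest, and it rose by 3.47 ± 0.54 log2 (adjusted p = 0.000111). At P14, Zbp1 had 1.08, 1.34, 2.3 and 0.806 CPM in ME, against 0.0645, 0.194, 0.226 and 0 CPM in control.

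Cmpk2 had 45.4, 77.1, 69.4 and 55.2 CPM in 8wk ME, against 26.9, 20.4, 26.7 and 23.4 CPM in control (1.34 ± 0.22 log2, adjusted p = 0.000153). Xaf1 had 16.2, 21.4, 17.3 and 12 CPM in ME, against 5.78, 7.23, 8.62 and 6.42 CPM in control (1.25 ± 0.22 log2, adjusted p = 0.00026). Ifit1 had 9.81, 14.4, 18.1 and 9.09 CPM in ME, against 2.15, 2.2, 4.33 and 2.85 CPM in control (2.15 ± 0.38 log2, adjusted p = 0.000301). In each of these the groups were apart. Irf7 had 95.6, 109, 105 and 37.7 CPM in ME, against 17.7, 15.8, 27.4 and 27 CPM in control (1.98 ± 0.36 log2, adjusted p = 0.000509). Stat2 had 25.5, 42.9, 47.7 and 39.2 CPM in ME, against 23.5, 15.2, 13.9 and 21.6 CPM in control (1.06 ± 0.26 log2, adjusted p = 0.00427). Irf7 and Stat2 did not overlap between groups either, though Stat2 came close in replicate 1 of both.

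For Isg15 and Usp18, 8wk ME replicate 4 fell within the control range. Isg15 had 40.3, 35.1, 35.1 and 15.5 CPM in ME, against 5.85, 8.65, 17.6 and 12.3 CPM in control (1.51 ± 0.36 log2, adjusted p = 0.00387). Usp18 had 58.8, 90.4, 77.4 and 28.2 CPM in ME, against 11.7, 16.3, 31 and 22.5 CPM in control (1.64 ± 0.34 log2, adjusted p = 0.00132). Compared with E16 controls, 19 of 34 members had all 8wk ME libraries lower, against 17.6% of all genes, and 0 had all of them higher.

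Over the 3 ages, 6 members rose in all of the ME comparisons: Dhx58, Zbp1, Herc6, Oas3, Cmpk2 and Trim30a. The E16 calls of Dhx58, Zbp1, Oas3 and Cmpk2 were lost without E16 ME replicate 4. The share of all genes that rose at every age was not counted. Ifih1 (MDA5, an RNA sensor), Eif2ak2 (PKR, the kinase that halts translation on double-stranded RNA), Parp14 and Ifi35 were called in none. Eif2ak2 was the flattest in the ME comparisons, with group means between 17.6 and 35.9 CPM and log2 fold changes of 0, -0.17 and -0.05 at E16, P14 and 8wk. Its level did differ with age, at control means of 35.9, 19.8 and 24.8 CPM at E16, P14 and 8wk. The largest fold change of an ME comparison among the members was that of Ifit3b, 4.25 ± 0.77 log2 at 8wk (adjusted p = 0.000465). It had 2.84, 3.27, 5.02 and 0.355 CPM in ME, against 0.167, 0, 0.262 and 0.129 CPM in control. Ifit3b had only 0 to 15 counts in an 8wk control library, so the size of its ratio is uncertain. It was chosen for mention after its values were seen.

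**Figure D5:**
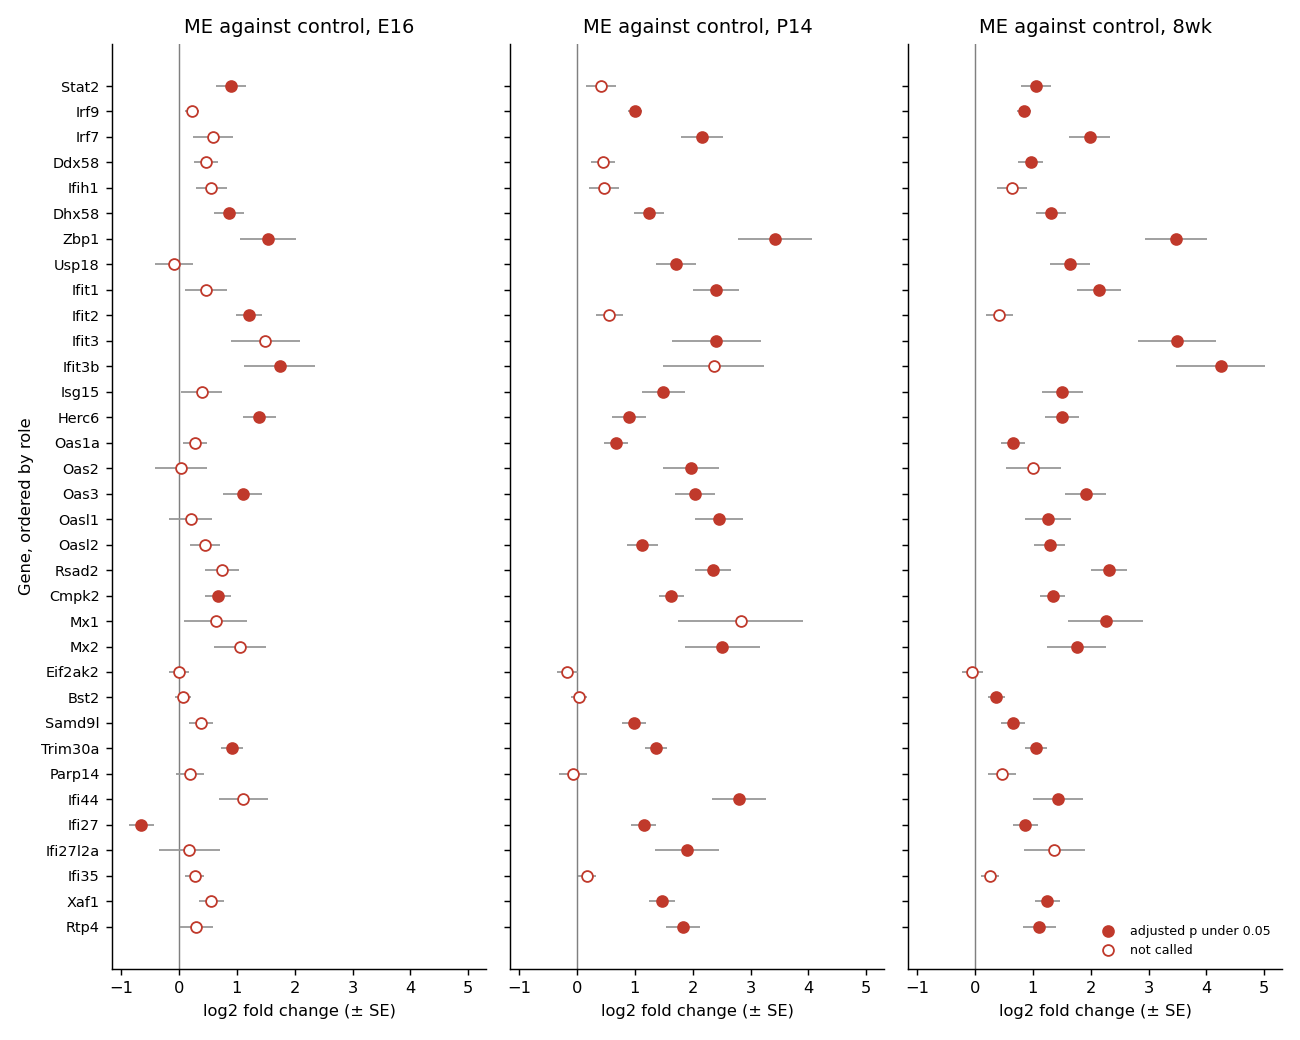
log2 fold change of ME against control (± SE) of the 34 members at E16, P14 and 8wk, with filled points at an adjusted p under 0.05. At E16, 9 points are filled to the right of 0 and Ifi27 to the left; at P14 and 8wk, 24 and 27 are filled, all to the right.

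Whether the ME effect differed between ages was tested as the difference of log2 fold changes. Between P14 and E16, 1 member was called, against 0.0211% of all genes, and between 8wk and E16, 1 member, against 0.85%. Both times it was Ifi27. Its effect at P14 minus that at E16 was 1.81 ± 0.30 log2 (adjusted p = 0.0259), and its effect at 8wk minus that at E16 was 1.52 ± 0.30 log2 (adjusted p = 0.017). Ifi27 had 95.6, 99.5, 143 and 104 CPM in P14 ME, against 48.1, 38.8, 64.4 and 47.5 CPM in P14 control libraries, with no overlap. It had 350, 320, 301 and 200 CPM in 8wk ME, against 125, 112, 214 and 192 CPM in 8wk control libraries, where replicate 4 of ME fell inside the control range. In the fit with the replicate block, whose numbers are not known to mark pairs, the P14 difference lost its call (1.84 log2, adjusted p = 0.106). With 1 library left out at a time, its adjusted p lay between 0.0188 and 0.112, and the 8wk difference was called each time.

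For the other members, the differences were wide and mostly positive but not called. The median was 0.92 log2 for P14 minus E16 and 0.71 for 8wk minus E16, against 0 and -0.07 for all genes. At an unadjusted p under 0.05, 15 and 13 members had a higher effect and 0 and 1 a lower one. The share of all genes at that cut was not counted. Irf9 came nearest among the signal factors, at 0.77 ± 0.17 log2 for P14 minus E16 (adjusted p = 0.268) and 0.61 ± 0.17 for 8wk minus E16 (adjusted p = 0.0901). Without E16 ME replicate 4, 8wk ME replicate 4 and 8wk control replicate 1, 10 members were called for 8wk minus E16. Without 8wk ME replicate 4 alone 5 were. Without E16 control replicate 4 the number was 3, and without E16 ME replicate 4 or 8wk control replicate 1 it was 2. The share of all genes called in these fits is not given here. Between 8wk and P14, 0 members were called by edgeR, DESeq2 or limma-voom, against 0.301% of all genes; Oasl1 and Ifi44 had a lower effect at 8wk at an unadjusted p under 0.05. The median of that difference was -0.10 log2.

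In control cells the members' level was lower at P14 than at E16. All 34 fell, against 7.51% lower of all genes, with a median log2 fold change of -3.67 against 0.01 for all genes. In 33 members all P14 control libraries lay below all E16 control libraries (12.6% of all genes), the exception being Parp14. Mx1 and Mx2, dynamin-like antiviral GTPases annotated as polymorphic pseudogenes, had at most 4 and 6 counts in any P14 control library, so they passed the filter through other groups. Zbp1, Ifit3 and Ifit3b were low there too, at 0 to 15, 5 to 29 and 0 to 11 counts, and passed likewise. The size of the fall of these members rests on few counts. Xaf1 had 3.65, 3.19, 3.78 and 2.26 CPM in P14 controls, against 41.7, 43.8, 39.6 and 31.3 CPM in E16 controls (-3.60 ± 0.24 log2, adjusted p = 1.35e-09). Rsad2 had 1.96, 2.05, 2.47 and 1.82 CPM in P14 controls, against 81.5, 105, 111 and 57.8 CPM in E16 controls (-5.42 ± 0.35 log2, adjusted p = 1.55e-09). Cmpk2, with the P14 values given above, had 134, 143, 140 and 77.2 CPM in E16 controls (-3.51 ± 0.24 log2, adjusted p = 1.76e-09). Irf9 changed by -1.74 ± 0.13 log2 (adjusted p = 3.85e-09).

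Markers of other cells also differed between these ages. Of 10 neutrophil markers 9 fell, with sums of 8.21 to 47.0 CPM in P14 controls and 1120 to 5980 CPM in E16 controls. Of 15 monocyte and macrophage markers 14 fell, with sums of 69.2 to 117 CPM in P14 controls and 501 to 1290 CPM in E16 controls. Of 10 erythroid markers 6 fell, with sums of 159 to 258 CPM in P14 controls and 864 to 1440 CPM in E16 controls. Of 10 megakaryocyte markers 7 fell, with sums of 86.0 to 185 CPM in P14 controls and 367 to 851 CPM in E16 controls. The pDC list, markers of plasmacytoid dendritic cells, which make much interferon, had 5 of 8 tested members lower and summed to 160 to 196 CPM at P14, with Klk1 at 0 counts, and 226 to 248 CPM at E16, with Klk1b27 at 0 counts. Its defining marker Siglech had 0.43, 0.0897, 0 and 0.152 CPM at P14, against 8.01, 6.89, 4.32 and 7.13 CPM at E16.

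From P14 to 8wk, control levels partly returned. Of 34 members 23 rose and 0 fell at 8wk against P14, against 7.01% higher of all genes. At an unadjusted p under 0.05, 27 were higher and 0 lower, with the share of all genes at that cut not counted. DESeq2 called 25 and limma-voom 17, none lower. The median log2 fold change was 1.23, against 0.05 for all genes. In 27 members all 8wk control libraries lay above all P14 control libraries (7.88% of all genes). Ifi27 had 125, 112, 214 and 192 CPM at 8wk, against 48.1, 38.8, 64.4 and 47.5 CPM at P14 (1.69 ± 0.21 log2, adjusted p = 6.36e-05). Usp18 had 11.7, 16.3, 31 and 22.5 CPM at 8wk, against 3.89, 3.25, 4.61 and 3.02 CPM at P14 (2.46 ± 0.36 log2, adjusted p = 0.000278). These groups did not overlap, and 8wk replicates 3 and 4 were the highest.

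Ifi44, a gene induced by interferon in many cell types, had 12.6, 15.8, 29.9 and 22.4 CPM at 8wk, against 3.05, 1.88, 2.66 and 2.7 CPM at P14 (2.97 ± 0.46 log2, adjusted p = 0.000535). Samd9l, which restrains viral and cellular translation, had 28.8, 31.6, 32 and 29.6 CPM at 8wk, against 11.4, 12.8, 13 and 13.4 CPM at P14 (1.27 ± 0.21 log2, adjusted p = 0.000674). Both were clear of overlap, Samd9l with the tighter groups. Of the markers, 2 of 10 neutrophil and 2 of 15 monocyte and macrophage markers rose at 8wk. Without 8wk control replicate 1, which carries most of that signal, E16 ME replicate 4 and 8wk ME replicate 4, 27 members were called.

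Against E16, 8wk controls stayed low. All 34 members fell (10.8% lower of all genes), the median log2 fold change was -2.38, and in 34 all 8wk libraries lay below all E16 libraries (13.1% of all genes). Markers of other cells were lower too, in 9 of 15 for monocytes and macrophages, 7 of 10 for erythroid cells, 6 of 10 for megakaryocytes, 5 of 8 for pDC and 3 of 10 for neutrophils. Their sums were 172 to 778, 82.5 to 217, 249 to 659, 98.3 to 128 and 19.4 to 866 CPM in 8wk controls, against 501 to 1290, 864 to 1440, 367 to 851, 226 to 248 and 1120 to 5980 CPM in E16 controls. Bst2 had 78.2, 78.9, 106 and 103 CPM at 8wk, against 297, 320, 281 and 261 CPM at E16 (-1.66 ± 0.14 log2, adjusted p = 1.87e-08). Rsad2 changed by -3.76 ± 0.32 log2, Xaf1 by -2.48 ± 0.23 and Cmpk2 by -2.34 ± 0.23. Across the 34 genes, which are not independent replicates, the members with the larger control gap between 8wk and E16 had the larger ME effect at P14 (Pearson r = -0.79, Spearman rho = -0.84; -0.06 and 0.05 over the 18931 genes tested). These comparisons share no library, and the relation is given as a description.

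Interferon itself was close to undetected. Of 20 genes for type I, II and III interferons, 0 passed the filter, and 9 of 15 interferon alpha and beta genes had 0 counts in all 24 libraries, which allows up to 3 counts, or 0.0433 to 0.0885 CPM, in a library. Ifnb1 had 20 counts over the 4 E16 ME libraries and 6 over E16 controls. It had 2 counts in P14 ME and 0 in P14 controls, and 13 in 8wk ME and 2 in 8wk controls. Some other interferon genes went the other way, with Ifna13 at 4 counts in 8wk ME and 12 in 8wk controls. Ifnk had 6 counts in E16 ME and 9 in E16 controls, and 1 in P14 ME and 3 in P14 controls. Others went the way of Ifnb1. Ifng had 2, 0 and 6 counts in ME at E16, P14 and 8wk, against 0 in controls of each age. Ifnl2 had 1, 1 and 3 counts in ME, against 0, 0 and 2 in controls. The highest count of any of these genes in 1 library was 8.

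The chains of the type I receptor and their kinases moved little. Of 10 receptor and JAK-STAT genes, 2 rose at E16, 2 at P14 and 6 at 8wk in ME, and 0 fell by edgeR. Of all genes, 13.3%, 12.7% and 14.2% were higher at these ages, so only the count at 8wk lay far above that share. Ifnar1 had log2 fold changes of 0.07, -0.01 and 0.20 at E16, P14 and 8wk, none called. Ifnar2 was called at 8wk alone (0.21 ± 0.08 log2, adjusted p = 0.0428), and Jak1 and Tyk2 at no age. Jak2, the kinase of the interferon gamma receptor and of many cytokine receptors, rose by 1.89, 2.16 and 2.31 log2 at E16, P14 and 8wk (adjusted p = 0.0025, 0.000755 and 0.000428). In each ME group its replicates 1 and 2 were far above replicates 3 and 4, as in P14 ME with 54.4, 55.9, 29.4 and 16.4 CPM, against 11, 8.57, 7.95 and 7.43 CPM in P14 control libraries. Ifngr1 and Ifngr2, the interferon gamma receptor, rose at 8wk by 0.62 ± 0.12 and 1.10 ± 0.23 log2.

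Among 17 tested brakes of the pathway, 4 rose and 2 fell at E16, 2 and 2 at P14, and 5 and 2 at 8wk. Of all genes, 13.3%, 12.7% and 14.2% were higher and 8.47%, 9.35% and 14.3% lower at E16, P14 and 8wk, so the count of brakes at P14 was near that of all genes. Socs1, the inhibitor of the JAK kinases, rose by 3.06 ± 0.64, 3.07 ± 0.64 and 2.96 ± 0.64 log2 at E16, P14 and 8wk (adjusted p = 0.00172, 0.00167 and 0.00187). It had 15.3, 8.47, 6.45 and 12 CPM in E16 ME, against 2.34, 1.6, 0.872 and 0.165 CPM in E16 control libraries, with no overlap. Socs3 rose at 8wk by 1.81 ± 0.38 log2. Rnaseh2a, a subunit of the enzyme that removes RNA from DNA hybrids, fell at each age, by 0.47, 0.51 and 0.67 log2 at E16, P14 and 8wk. Ptpn6 (SHP-1), a phosphatase, fell at E16 and P14 (-0.51 and -0.49 log2).

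Of 18 genes for nucleic acid sensing and interferon induction, 2 rose and 1 fell at E16, 1 and 1 at P14, and 6 and 0 at 8wk. The counts at E16 and P14 were near or under the shares of all genes given for the brakes. Tlr3, the endosomal sensor of double-stranded RNA, rose at E16 and 8wk by 1.34 ± 0.31 and 1.22 ± 0.31 log2. Unc93b1, which escorts these receptors to endosomes, rose at P14 and 8wk by 0.89 ± 0.30 and 1.61 ± 0.30 log2. The adaptor Myd88 fell at E16 and P14 (-0.38 and -0.45 log2), and Irf5 rose at 8wk by 0.86 ± 0.18 log2.

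In a wider list of 59 tested interferon-induced genes outside the 34, the genes called in ME mostly rose. In ME, 21 rose and 3 fell at E16, 22 and 3 at P14, and 32 and 2 at 8wk. Of all genes, 13.3%, 12.7% and 14.2% were higher and 8.47%, 9.35% and 14.3% lower at these ages. Parp12 rose by 3.61 ± 0.44, 3.64 ± 0.44 and 4.23 ± 0.45 log2 at E16, P14 and 8wk, with 252, 243, 152 and 161 CPM in E16 ME, against 21.3, 19.2, 12.4 and 13.4 CPM in E16 control libraries. Ifitm1, a membrane protein that blocks viral entry, fell at every age (-1.13 ± 0.15, -1.05 ± 0.15 and -0.95 ± 0.15 log2), with 422, 351, 340 and 457 CPM in E16 ME, against 926, 963, 832 and 726 CPM in E16 control libraries. Parp12 and Ifitm1 did not overlap at E16 and moved in opposite directions. Tnfsf10 (TRAIL), a death ligand, rose by 1.60 ± 0.21 log2 at E16, and Gbp6 and Iigp1, GTPases against intracellular parasites, by 5.76 ± 0.83 and 3.39 ± 0.48 log2 at P14.

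Cxcl10, a chemokine, rose at 8wk by 5.37 ± 0.79 log2, with 36.5, 25.2, 23.3 and 0.878 CPM in ME, against 0.67, 0.315, 0.419 and 0.644 CPM in control. Replicate 4 of ME, the library with the lowest monocyte markers of its group, lay near the controls. In control cells of this list, 0 rose and 52 fell at P14 against E16, 18 rose and 0 fell at 8wk against P14, and 0 rose and 43 fell at 8wk against E16. Of all genes, 7.51% were lower at P14 against E16, 7.01% higher at 8wk against P14 and 10.8% lower at 8wk against E16. Promoter windows of this list held the ISRE core in 27 of 52 genes (51.9%).

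Of 14 tested interferon gamma response genes, 5 rose and 1 fell at E16, 6 and 0 at P14, and 10 and 0 at 8wk in ME. The shares of all genes were 13.3%, 12.7% and 14.2% higher and 8.47%, 9.35% and 14.3% lower. Gbp4 rose at all ages, by 2.72 ± 0.63, 2.74 ± 0.75 and 3.83 ± 0.67 log2 at E16, P14 and 8wk. Irf1, a factor induced by both kinds of interferon, had log2 fold changes of 0.46, 0.08 and 0.72 at E16, P14 and 8wk, called at 8wk (adjusted p = 0.00374). Icam1, an adhesion protein, rose at 8wk by 1.42 ± 0.26 log2. Ly6a, which encodes the sorted protein Sca1, was called at 8wk alone (1.06 ± 0.27 log2, adjusted p = 0.0055), with 485, 267, 277 and 140 CPM in ME, against 104, 126, 167 and 161 CPM in control. Replicate 4 of ME lay inside the control range. In controls, Ly6a fell with the members, with a log2 fold change of -2.95 ± 0.28 at P14 against E16 (adjusted p = 3.09e-07). All groups are labelled LSK, a sort that uses its product, but cells were kept in culture for 48 h. Tissue differs too between these ages.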

How the data were processed

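The deposited table gives raw read counts for Ensembl identifiers in 24 libraries. Per the submitters' processing notes, the authors used STAR 2.7.9a, featureCounts 2.0.3 (Subread) and the GRCm38 build; the strand setting and the treatment of reads that map to several genes are not given in the sources used here. Among counts of 1 to 20, a median of 63.6% were even, a pattern that counting mates separately would give, so reads are not independent molecules and limits set by a count of 0 cover counting error only. Identifiers on several lines (168, with identical counts) were kept once. Library totals were 33.9 to 69.3 M counts. Without the strand setting, reads of overlapping genes cannot be told apart; Irf9, Irf7, Dhx58, Usp18, Herc6, Oasl1, Eif2ak2, Parp14, Ifi35 and Rtp4 share exon bases with another gene, most in Herc6 (1269 of 9292). Counts of Ifit3 and Ifit3b, Oas1a and Oas1g, and Mx1 and Mx2 may be mixed with those of close relatives.

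The filterByExpr filter, at a minimum count of 10, kept 18931 genes. One edgeR 4.0.16 model (R 4.3.3) over all 6 groups, scaled by TMM, gave robust quasi-likelihood tests, and the code was tested on simulated data. Adjusted p-values are Benjamini-Hochberg over all genes tested within a comparison; SE is that of the log2 fold change. Coordinates are those of GENCODE M21. Promoter sequences are from RefSeq (GRCm38.p6). Members and lists were chosen with earlier results of these data known. Named members are Stat2, Irf9, Irf7, Usp18, Isg15 and Ifit1, and those with the smallest adjusted p among the called (6 per ME comparison, 4 per other comparison); of other lists, up to 4 called genes per comparison could be named. Alternatives were DESeq2 1.42.0, limma-voom (limma 3.58.1), other scalings and filters, a GC correction, a replicate block and leaving out libraries. For most of them the share of all genes called is not given here. At P14, correlations of deviations of same-numbered ME and control libraries were 0.24, 0.18, 0.14 and 0.32, all over 0.1. Some unlike-numbered pairs were as high, at 0.24 for ME 2 with control 1 and 0.31 for ME 3 with control 4. Whether the numbers mark pairs is therefore not settled. At E16 and 8wk the same-numbered correlations were not all over 0.1. Results for some genes of the lists are not reported here.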

Additional observations from a re-analysis of the deposited data

Results flagged for a closer look

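Among 120 groups of 4 libraries (20 named members in 6 groups), 18 held a library far from the other 3 by Dixon's test; chance alone flags about 1 in 20. In E16 ME, replicate 4 was the high library for Dhx58 (291 CPM), Zbp1 (88.5), Ifit2 (168), Isg15 (250), Herc6 (91.8), Trim30a (377), Ifi44 (597) and Xaf1 (78.9). In E16 control, replicate 4 was the low library for Ifit1 (25.4 CPM), Ifit2 (30.6) and Cmpk2 (77.2). In P14 ME, replicate 3 was the high library for Stat2 (33.3 CPM), Irf7 (56.0), Oas3 (61.1), Cmpk2 (51.1) and Samd9l (38.7). In 8wk ME, replicate 4 was the low library for Ifi44 (35.0 CPM), and in 8wk control, replicate 3 was the high library for Trim30a (52.3 CPM). The same libraries recur, and members measured in a library are not independent.

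The ME effect on Ifi27 differed between ages by a test of the difference, by 1.81 log2 for P14 minus E16 and 1.52 log2 for 8wk minus E16. The first was no longer called with the replicate block (adjusted p = 0.106), with no filter on low counts (adjusted p = 0.054) or without any 1 of several libraries, 15 alternatives in all, while 11 kept it; the second was called in all 26 alternatives run for it at an adjusted p under 0.05, but not at 0.01.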

How the results depend on the processing

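No called named member changed sign under any alternative run. Counts of members called in ME against control at E16 (10 as reported) were 3 at an adjusted p under 0.01, 4 with the replicate block and 4 with no filter on low counts. Without E16 ME replicate 4, 8wk ME replicate 4 and 8wk control replicate 1, 3 were called. Leaving out these 3 libraries was a choice made after seeing the data. Leaving out 1 library gave 3 to 12. Ifit2, Herc6 and Trim30a were called in each of these E16 fits. For P14 minus E16 (1 as reported) the count was 0 at 0.01, with the replicate block and with no filter, 3 with DESeq2 and 2 without the 3 libraries; leaving out 1 library gave 0 to 1. For 8wk minus E16 (1) it was 0 at 0.01, 5 with DESeq2 and 10 without the 3 libraries; leaving out 1 library gave 1 to 5. The cause of these shifts was not tested. All other counts stayed within 1.5 times; leaving out 1 library gave 19 to 24 at P14, 22 to 28 at 8wk, 0 throughout for 8wk minus P14, 32 to 34 for control P14 against E16, 17 to 23 for 8wk against P14 and 30 to 34 for 8wk against E16. At P14, 20 members were called with the replicate block. Library size only moved the median of all genes to 0.11 log2 at E16 and P14, and upper-quartile factors to -0.11 at 8wk, beside member medians of 0.61, 1.56 and 1.17. The share of higher calls among all genes at E16 was 74.6% with library size only and 47.4% with upper-quartile factors, against 61.1% as reported; at P14 it was 70.5% and 44.7%, against 57.5%, and at 8wk 56.6% and 39.1%, against 49.8%, and 67.9% when fitted on the groups compared alone. Depth limits Zbp1, Mx1, Mx2, Ifit3, Ifit3b and the interferon genes, which rest on few counts at P14. Ifit3b, Mx1 and Mx2 had few counts in 8wk controls too.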
